A study of Mus musculus with 12 samples.

Results

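Striatal projection neuron genes were followed in bulk RNA of the mouse lateral septum. The set holds 9 genes, chosen by symbol: Drd1, Drd2, Adora2a, Ppp1r1b, Rgs9, Pde10a, Rarb, Gng7 and Syndig1l. All 9 were among the 54532 genes of the deposited table, and all 9 passed a filter of at least 1 FPKM in at least 6 of the 12 libraries, as did 13345 genes in all. FPKM is fragments counted per gene, divided by gene length and scaled to the depth of the library, so levels of different genes can be set side by side. The lowest of the 9, Rarb, passed with 2 saline and 4 CFA libraries at 1 FPKM or more. The labels describe 6 libraries of wild-type mice that received saline and 6 of wild-type mice that received CFA. CFA usually stands for complete Freund's adjuvant, an oil emulsion whose injection inflames the tissue for days. Day 3 is given for all 12. The design sets the CFA group against the saline group. Sex and age are not in the labels, nor is it stated that each library is a different animal. The p-values below therefore rest on the spread between these 12 samples, part of which may be technical.

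Libraries held 33.6 to 39.2 M recovered reads. No library was a repeat of another within sampling noise: even the closest pair (saline 4, saline 6) had a chi-square per degree of freedom of 6.78. The groups differed in sex composition, since 2 saline libraries but 5 CFA libraries had Xist above 1 FPKM, and the Y-linked Ddx3y was above it in the other 4 and 1. For the labelled tissue, 11 lateral septum marker genes were read. All 11 were above 0 in all 12 libraries, from Zic1 (75.4 to 132 FPKM), Zic2 (39.8 to 71.8) and Trpc4 (12.6 to 18.4) down to Esr1 (0.332 to 0.722). So were 31 other genes known from striatal projection neurons (below), so presence above 0 cannot tell septum from striatum.

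Spiny projection neurons are GABAergic cells that carry the output of the striatum, the large nucleus that lies lateral to the septum across the lateral ventricle. One class expresses the dopamine receptor gene Drd1 and projects directly to the output nuclei of the basal ganglia. The other expresses Drd2 together with the adenosine receptor gene Adora2a and acts through the indirect pathway. Drd1 and Adora2a products raise cyclic AMP through a stimulatory G protein that contains the gamma subunit encoded by Gng7, and the Drd2 product lowers it. Protein kinase A then phosphorylates DARPP-32, encoded by Ppp1r1b, which turns it into an inhibitor of protein phosphatase 1. Pde10a encodes a phosphodiesterase that degrades cyclic nucleotides, and Rgs9 a protein that shortens G protein signals. Dopamine receptors are also expressed in lateral septal neurons, Drd2 among them.

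The genes are spread over 7 chromosomes (coordinates of GRCm38, from the deposited table). Drd1 lies at chr13:54051183-54055705 on the minus strand, Drd2 at chr9:49340627-49408177 on the plus strand and Adora2a at chr10:75316877-75334784 on the plus strand. Ppp1r1b (chr11:98348404-98357796, plus) and Rgs9 (chr11:109225355-109298129, minus) share chromosome 11. Gng7 (chr10:80948624-81014945, minus) shares chromosome 10 with Adora2a. Pde10a lies at chr17:8525372-8986648 (plus), Rarb at chr14:16430839-16819156 (minus) and Syndig1l at chr12:84677277-84698831 (minus).

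RefSeq promoter windows of GRCm38.p6, 250 bases ending at an annotated transcript start, were matched for 6 of the 9 genes; Adora2a, Ppp1r1b and Syndig1l were not matched. The windows of Drd2 and Rgs9 are shown because these genes carry the contrast between a gene that held nearly level across libraries and one that did not (below). Capitals mark the GC box, GGGCGG on either strand, the usual site of Sp-family factors. The Drd2 window, chr9:49340153-49340402, plus strand, holds 2 of them, and the Rgs9 window, chr11:109298182-109298431, minus strand, holds 1.
Drd2: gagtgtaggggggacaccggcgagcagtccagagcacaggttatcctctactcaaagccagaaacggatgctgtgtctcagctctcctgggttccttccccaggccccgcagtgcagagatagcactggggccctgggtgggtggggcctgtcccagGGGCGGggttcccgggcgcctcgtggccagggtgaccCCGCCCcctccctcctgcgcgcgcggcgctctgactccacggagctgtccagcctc
Rgs9: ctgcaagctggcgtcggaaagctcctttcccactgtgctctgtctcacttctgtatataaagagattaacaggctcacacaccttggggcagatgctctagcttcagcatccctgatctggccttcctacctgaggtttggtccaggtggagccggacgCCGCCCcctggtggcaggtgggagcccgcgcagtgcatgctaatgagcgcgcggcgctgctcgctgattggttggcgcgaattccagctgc
A GC box occurs in 32.7% of the 32851 windows of the RefSeq table, so it sets neither gene apart. In Rarb, which encodes retinoic acid receptor beta, capitals mark a direct repeat, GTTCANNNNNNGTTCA, shown with its flanks at chr14:16575506-16575535 on the minus strand. With the base before each GTTCA, the half-sites are GGTTCA and AGTTCA with 5 bases between them, the layout of the retinoic acid response element for which this promoter is known.
Rarb: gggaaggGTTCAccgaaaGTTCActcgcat
The repeat starts 52 bases before the transcript start and occurs on either strand in 22 windows, 0.0670% of all. These matches describe letters in the windows, and binding of a factor was not measured.

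Among the receptors, Drd2 was the highest and the most even. Drd2 ranged from 16.9 to 22.1 FPKM in saline (median 21.1) and from 16.4 to 28.1 in CFA (median 19.7). The groups overlapped, and 1 library, CFA 1, stood above the rest. Drd1 ranged from 3.13 to 9.96 FPKM in saline (median 3.97) and from 3.11 to 17.8 in CFA (median 6.73). Its lowest CFA library lay just under its lowest saline library, while CFA 1 (17.8) and CFA 6 (13.2) lay above every saline library. Adora2a ranged from 1.82 to 6.92 FPKM in saline (median 2.26) and from 0.959 to 19.2 in CFA (median 4.76). The CFA group held both the lowest and the highest library of Adora2a, a 20.0-fold distance, against 5.73-fold for Drd1 and 1.72-fold for Drd2.

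**Figure D1:**
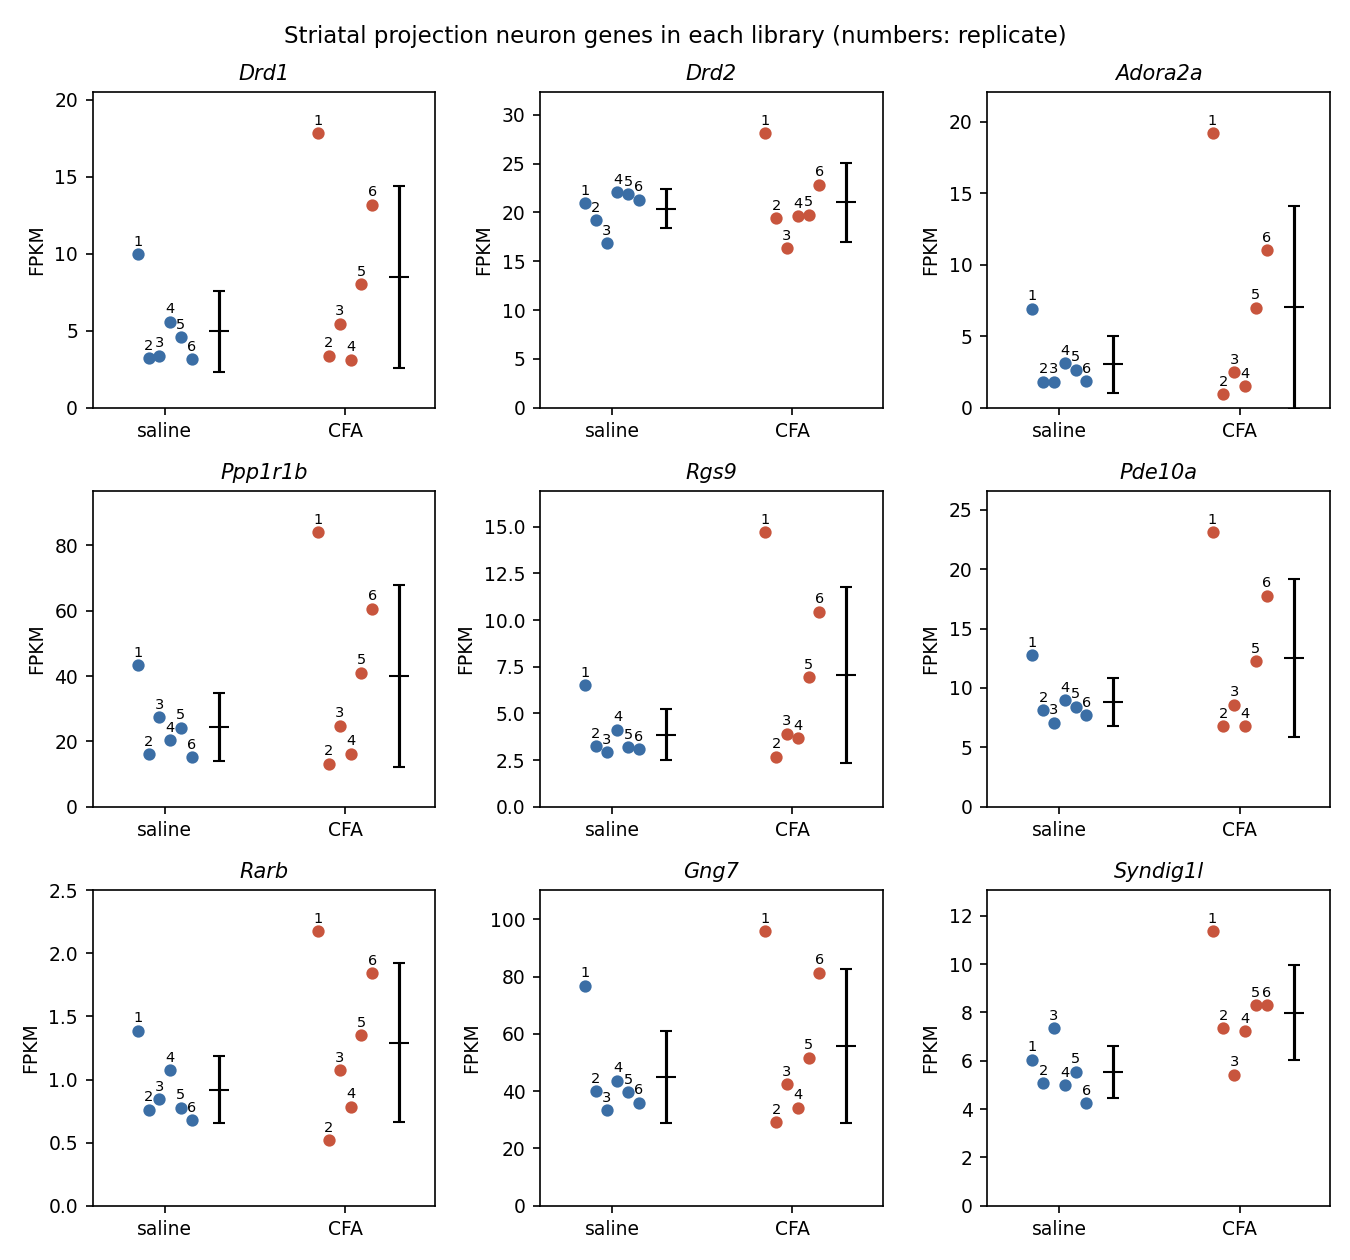
FPKM of each of the 9 genes in every library, one panel per gene, with saline in blue, CFA in red and the replicate number above each point; bars show the group mean and SD (n = 6 each), drawn down to 0 at the lowest. The groups overlap in all 9 panels, and CFA 1 is the highest point in each.

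The intracellular signalling genes spread in the same manner. Ppp1r1b ranged from 15.2 to 43.4 FPKM in saline (median 22.3) and from 13.2 to 84.0 in CFA (median 32.9). CFA 1 (84.0) and CFA 6 (60.6) lay above every saline library and CFA 2 below every one. Gng7, the most abundant of the 9 genes per length, ranged from 33.4 to 76.9 FPKM in saline (median 39.8) and from 29.1 to 95.9 in CFA (median 47.1). Here only CFA 1 and CFA 6 stood above saline 1. Pde10a ranged from 7.09 to 12.8 FPKM in saline (median 8.27) and from 6.75 to 23.1 in CFA (median 10.4). Rgs9 ranged from 2.93 to 6.50 FPKM in saline (median 3.21) and from 2.67 to 14.7 in CFA (median 5.42). For Rgs9, 3 of 6 CFA libraries lay above the saline range and 1 lay below it.

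The receptor of retinoic acid and the synaptic protein gene gave the last values. Rarb ranged from 0.677 to 1.39 FPKM in saline (median 0.811) and from 0.522 to 2.18 in CFA (median 1.21), on 102 to 455 recovered reads per library. Exons of Rarb overlap Top2b and Gm48162 on the opposite strand. The strand setting of the counting is not given in the sources used here, so such reads cannot be told apart. Top2b was at 7.15 to 9.39 FPKM with r = 0.0165 against Rarb over the 12 libraries, and Gm48162 was listed at 0. That r cannot show a steady share of Top2b reads in the Rarb values, and such a share was not tested. Syndig1l, which encodes a relative of the synapse differentiation inducing protein SynDIG1, ranged from 4.26 to 7.35 FPKM in saline (median 5.31) and from 5.42 to 11.4 in CFA (median 7.82). All 6 CFA libraries lay above the saline median and 3 above the saline range, and none below it. Exons of Ppp1r1b overlap 1700003D09Rik (at most 0.979 FPKM, r = 0.854 with Ppp1r1b) and those of Syndig1l overlap Gm48573 (listed at 0), both on the opposite strand.

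Per length, the saline means ran in the order Gng7 (44.9 ± 16.0 FPKM, SD, n = 6), Ppp1r1b (24.5 ± 10.4), Drd2 (20.4 ± 2.00), Pde10a (8.84 ± 2.02), Syndig1l (5.54 ± 1.07), Drd1 (4.97 ± 2.63), Rgs9 (3.85 ± 1.37), Adora2a (3.04 ± 1.98) and Rarb (0.920 ± 0.265). Only 2 neighbouring pairs in this order had saline ranges that did not overlap, Drd2 with Pde10a and Adora2a with Rarb. In CFA the means were 55.8 ± 27.0 FPKM for Gng7, 40.0 ± 27.9 for Ppp1r1b, 21.0 ± 4.04 for Drd2 and 12.6 ± 6.66 for Pde10a (SD, n = 6). Drd1 came next at 8.49 ± 5.89, then Syndig1l at 7.99 ± 1.96, Rgs9 at 7.06 ± 4.71, Adora2a at 7.04 ± 7.10 and Rarb at 1.29 ± 0.630. Spread was thus wider in CFA than in saline for all 9 genes by SD, and this difference in spread was not tested.

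None of the 9 genes differed between CFA and saline by limma with Benjamini-Hochberg adjustment over all genes. The count was 0 of 9 called, where 0.03% of the 13345 genes tested were called (4 genes), 0.015% of them higher in CFA. All 9 estimates were above 0, against 48.0% of all genes, and their median on the log2(FPKM + 1) scale was 0.45, against -0.00427 over all genes. These 9 genes move together from library to library, so 9 estimates on 1 side of 0 are not 9 separate observations. No gene of the 9 had groups that did not overlap, which 0.495% of all genes did (66 genes).

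The closest to a difference was Syndig1l, with a log2 fold change of 0.45 (SE 0.14, 95% interval 0.15 to 0.75, limma adjusted p = 0.401). Its exact permutation p over all assignments of 6 of the 12 libraries was 0.0216, two-sided, and its unadjusted limma p was 0.00653. It was the 1 of 9 genes with an unadjusted limma p under 0.05, as 7.67% of all genes had. Adora2a had the largest estimate, 0.60, and the widest interval, -0.50 to 1.71 (limma adjusted p = 0.828, exact permutation p = 0.344). Rgs9 had 0.57 (-0.11 to 1.26, adjusted p = 0.719) and Drd1 0.53 (-0.27 to 1.33, adjusted p = 0.779). Ppp1r1b followed at 0.48 (-0.40 to 1.36, adjusted p = 0.828). Sizes and order rested in part on CFA 1, without which the estimates were 0.35 for Syndig1l, 0.34 for Rgs9, 0.29 for Drd1, 0.24 for Adora2a and 0.21 for Ppp1r1b.

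Smaller estimates came from Pde10a, 0.35 (-0.21 to 0.91), Gng7, 0.23 (-0.37 to 0.84), and Rarb, 0.22 (-0.13 to 0.57), with limma adjusted p of 0.796, 0.892 and 0.795. Drd2 had 0.029, whose interval of -0.20 to 0.26 corresponds to 0.871 to 1.19 times the saline level, both taken as FPKM + 1 (limma adjusted p = 0.975, exact permutation p = 0.835). For the other genes the intervals left room for larger ratios, up to 3.28 for Adora2a. The median of the 9 estimates was 0.21 without CFA 1 and 0.30 without CFA 6, and 0.36 with Xist above 1 FPKM as a covariate. In bulk tissue, fewer cells of a type and less RNA per cell cannot be told apart.

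The same few libraries were high in gene after gene. CFA 1 was first of 12 for all 9 genes, and CFA 6 ranked 2 or 3 for all 9. CFA 5 was among the first 4 libraries for 8 genes and saline 1 for 7. At the other end, CFA 2 was among the last 4 for 7 genes and the lowest of all for Adora2a, Ppp1r1b, Rgs9, Rarb and Gng7. Saline 6 was among the last 4 for 7 genes, saline 2 and saline 3 for 6 each. High and low libraries therefore occurred in both groups, and by median rank the 2 highest libraries and the lowest were all CFA.

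**Figure D2:**
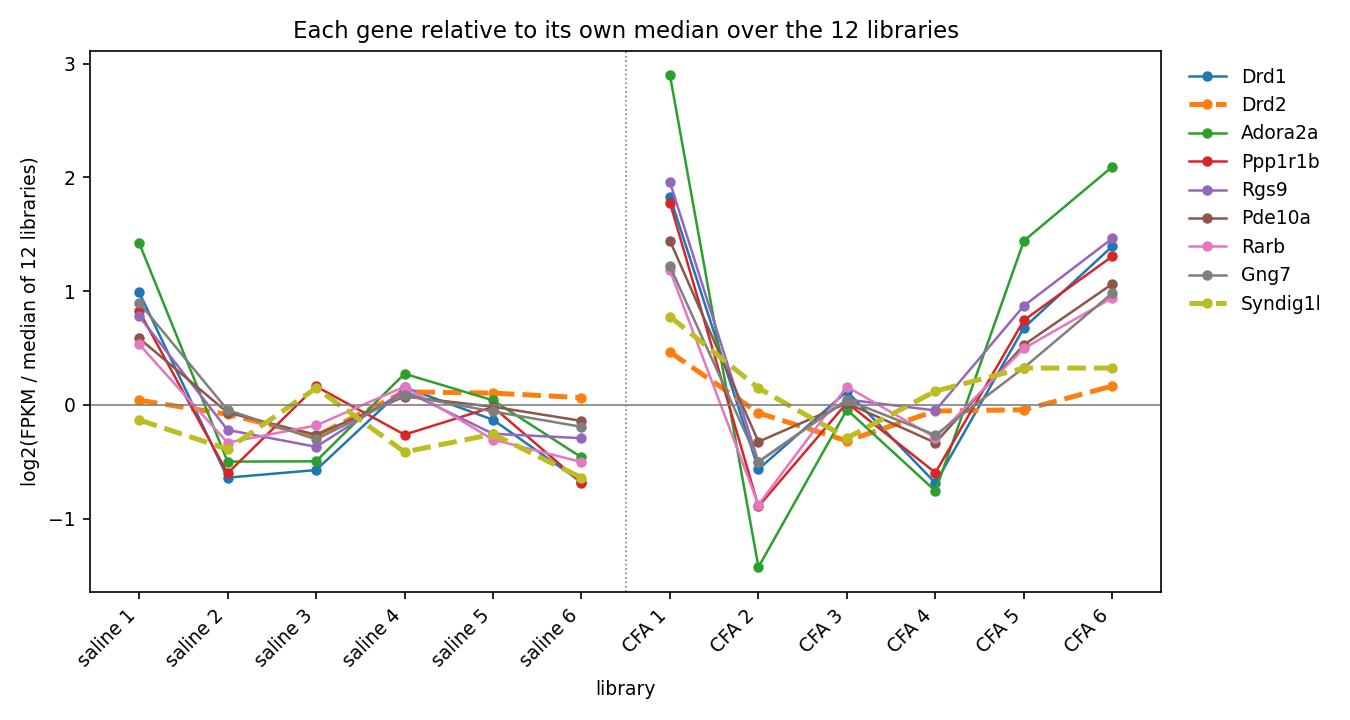
Level of each gene in each library as log2 of FPKM over the gene's own median of the 12 libraries; lines join the points of 1 gene within a group for reading only, and dashed lines mark Drd2 and Syndig1l. Saline 1, CFA 1, CFA 5 and CFA 6 are high and CFA 2 low for most genes, while Drd2 stays near 0.

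Pairs of the 9 genes were correlated over the 12 libraries on the log2(FPKM + 1) scale, 36 pairs in all. Pearson's r ran from 0.40 to 0.988 with a median of 0.945. After Benjamini-Hochberg adjustment over the 36 pairs, 33 passed by r and 23 by Spearman's rho (permutation tests with 100000 resamples, two-sided). Without CFA 1, 21 pairs passed by r. The genes were named with their joint movement known from these libraries, so the pairs describe its closeness and give no independent support.

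Drd1, Adora2a, Ppp1r1b, Rgs9, Pde10a, Rarb and Gng7 formed a tight group of 7. Their 21 pairs had r from 0.923 to 0.988 and rho from 0.790 to 0.972. Without the 2 libraries farthest from the median, r was 0.807 to 0.978. Within CFA r was 0.971 to 0.996. Within saline r was 0.705 to 0.995, but saline 1 stood far above the other saline libraries in FPKM for 5 of the 7 genes. Within saline the ranks followed less closely for Ppp1r1b. In saline its rho was 0.257 with Rgs9 (exact permutation p of r 0.10), 0.257 with Gng7 (0.117), 0.371 with Pde10a (0.126) and 0.486 with Adora2a (0.0597). The closest pair was Adora2a with Pde10a (r = 0.988, permutation p = 1e-05, adjusted p = 2.57e-05; rho = 0.958, permutation p = 1e-05). That p of 1e-05 is the smallest the resamples can give. Drd1 and Adora2a, which mark the direct and the indirect pathway neurons, varied together nearly as closely by r (0.978) and less closely by rho (0.895).

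Drd2 followed less closely than its partner in the indirect pathway neurons. Its 8 pairs had r from 0.40 to 0.728, and -0.28 to 0.553 without the 2 farthest libraries. With Drd1 it had r = 0.661 (permutation p = 0.0180, adjusted p = 0.0231) and rho = 0.566 (permutation p = 0.0601, adjusted p = 0.0811). Without CFA 1 and CFA 6 the r of Drd1 with Drd2 was 0.193, so the relation rested on those libraries. With Adora2a, r was 0.701 and rho 0.706, and r was 0.510 without CFA 1 and CFA 3.

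Syndig1l stood apart as well. Its 8 pairs had r from 0.40 to 0.705, and between -0.28 and 0.334 without the 2 farthest libraries, which were CFA 1 with CFA 6 or CFA 3. Its pair with Drd2 was the loosest of the 36 (r = 0.40, permutation p = 0.197; rho = 0.182, permutation p = 0.572). In saline that pair had r = -0.691 (exact permutation p = 0.133) and in CFA 0.960 (exact permutation p = 0.00556), and this difference between the groups was not tested.

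**Figure D3:**
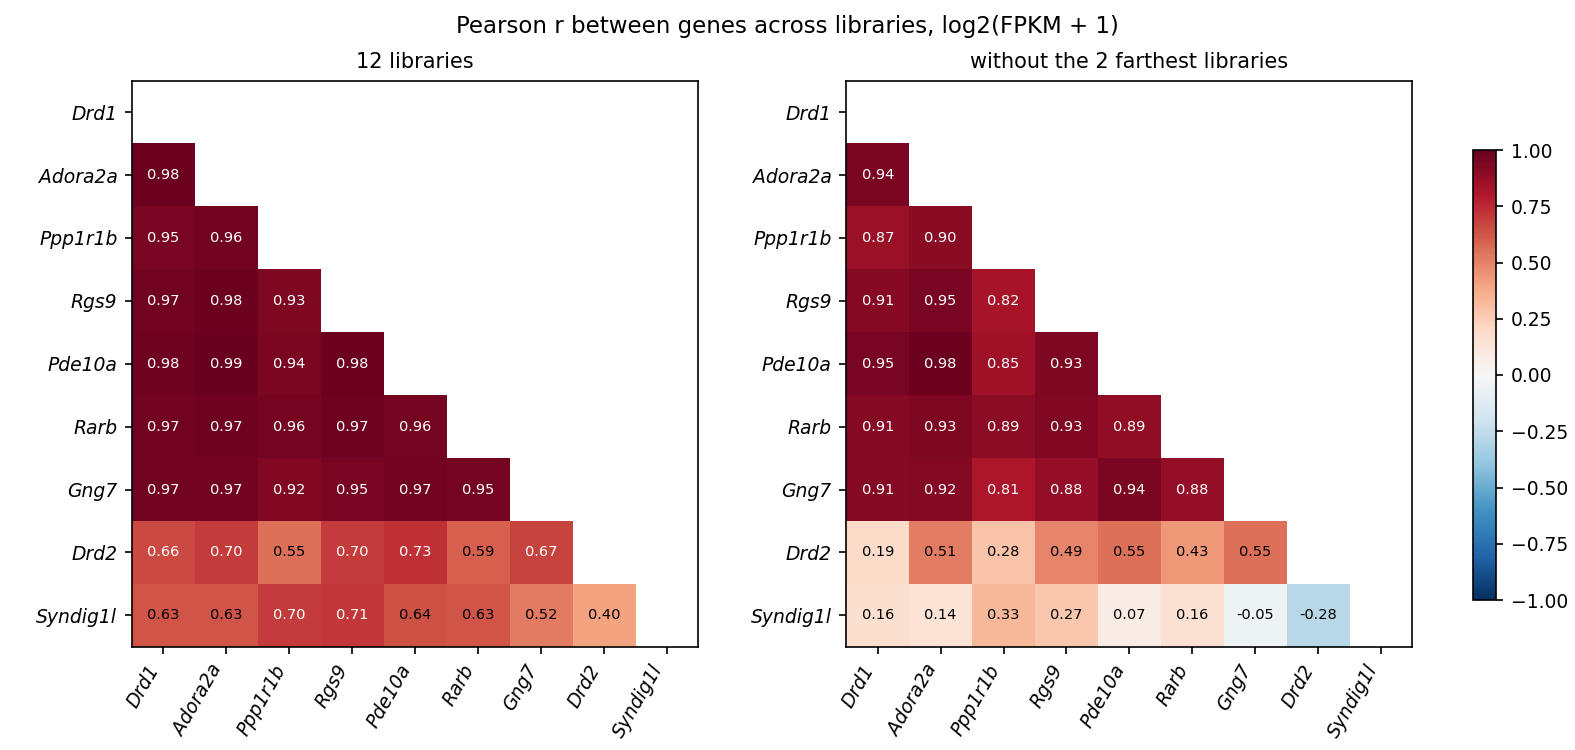
Pearson r for each pair of the 9 genes on the log2(FPKM + 1) scale, over the 12 libraries on the left and without the 2 libraries farthest from the median of the first gene on the right; colour runs from -1 in blue to 1 in red. The 21 pairs among 7 genes stay at 0.807 or above on the right, while pairs with Drd2 or Syndig1l reach at most 0.553.

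Ratios between genes cancel what they share in a library. Drd1 to Drd2 ran from 0.147 to 0.475 in saline (median 0.204) and from 0.159 to 0.634 in CFA (median 0.367). The ratio was highest in CFA 1 (0.634), CFA 6 (0.577), saline 1 (0.475) and CFA 5 (0.405), the libraries that were also highest in Ppp1r1b. Adora2a to Drd2, a ratio of receptors that indirect pathway neurons share, ran from 0.0879 to 0.330 in saline and from 0.0494 to 0.683 in CFA, a 13.8-fold spread. Ratios to Ppp1r1b within the tight group spread 1.99-fold for Pde10a, 2.03-fold for Rarb, 2.11-fold for Rgs9, 2.17-fold for Gng7 and 2.22-fold for Drd1, but 3.43-fold for Adora2a. The spread of Drd1 to Drd2 was 4.31-fold. Of 10 ratios, 0 differed between CFA and saline by the same two-sided exact permutation test, with adjusted p of 0.688 for 9 of them and 0.959 for Syndig1l to Ppp1r1b. None had an unadjusted p under 0.05, the smallest being 0.197 for Drd1 to Drd2.

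Other genes known from striatal projection neurons were read from a list of 32 symbols, of which 31 were in the table, all above 0 in every library, and 28 were tested. Their summed level was 378 to 515 FPKM in saline and 398 to 754 in CFA. None of the 28 was called, 24 were above and 4 below 0, and their median log2 fold change was 0.18. Rxrg, a retinoid X receptor gene of the striatum, had 3.99 ± 1.67 FPKM in saline and 7.46 ± 4.63 in the CFA group (SD, n = 6 each), a log2 fold change of 0.64 (limma adjusted p = 0.661). Gpr6, an orphan receptor gene of indirect pathway neurons, had 4.08 ± 2.45 and 6.88 ± 4.47 (0.57, adjusted p = 0.765). Sp9, a transcription factor gene of developing indirect pathway neurons, lay the other way, with 17.1 ± 1.84 FPKM in saline and 14.3 ± 2.37 in CFA (-0.25, adjusted p = 0.585).

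Likeness to the 9 genes was measured as the mean Pearson r with them over the 12 libraries, for 13336 other genes, as a description with no test. The genes most like them were Penk (0.906), Rxrg (0.895), Scn4b (0.892), Pde1b (0.888), Syndig1 (0.887), Flrt3 (0.884), Tac1 (0.880), Foxp1 (0.876), Gpr6 (0.873) and Tshz1 (0.872). Penk encodes the enkephalin precursor of indirect pathway neurons, and Tac1 the substance P precursor of direct pathway neurons. Penk ran from 37.5 to 180 FPKM, with CFA 2 the lowest and CFA 1 the highest library, and Tac1 from 2.31 to 27.1 FPKM, an 11.7-fold distance. Scn4b encodes a sodium channel beta subunit, Foxp1 a forkhead transcription factor and Pde1b a calmodulin-dependent phosphodiesterase. Without CFA 1, 7 of these 10 genes were still among the first 10 and all 10 among the first 100. By Spearman's rho, 3 were among the first 10 and 9 among the first 100.

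A mean r of 0.8 or more was reached by 61 of the 13336 genes, 0.457%, and by 14 of the 28 striatal list genes. The list was not uniform. Sp9 (-0.47), Grik3 (-0.45), Ttc12 (-0.23), Tmem158 (-0.0190), Isl1 (0.10), Actn2 (0.10) and Lrrc10b (0.12), named here after their values were seen, had means near or below 0. Of these, Grik3 (20.9 to 26.5 FPKM) and Tmem158 (84.4 to 116 FPKM) were well expressed and varied little between libraries. Foxp1 followed the 9 genes closely with a distance of only 2.23-fold between its highest and lowest library. The gene Drd2 had a mean r of 0.626 with the other 8 and Syndig1l 0.607, against 0.865 to 0.898 for the remaining 7.

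**Figure D4:**
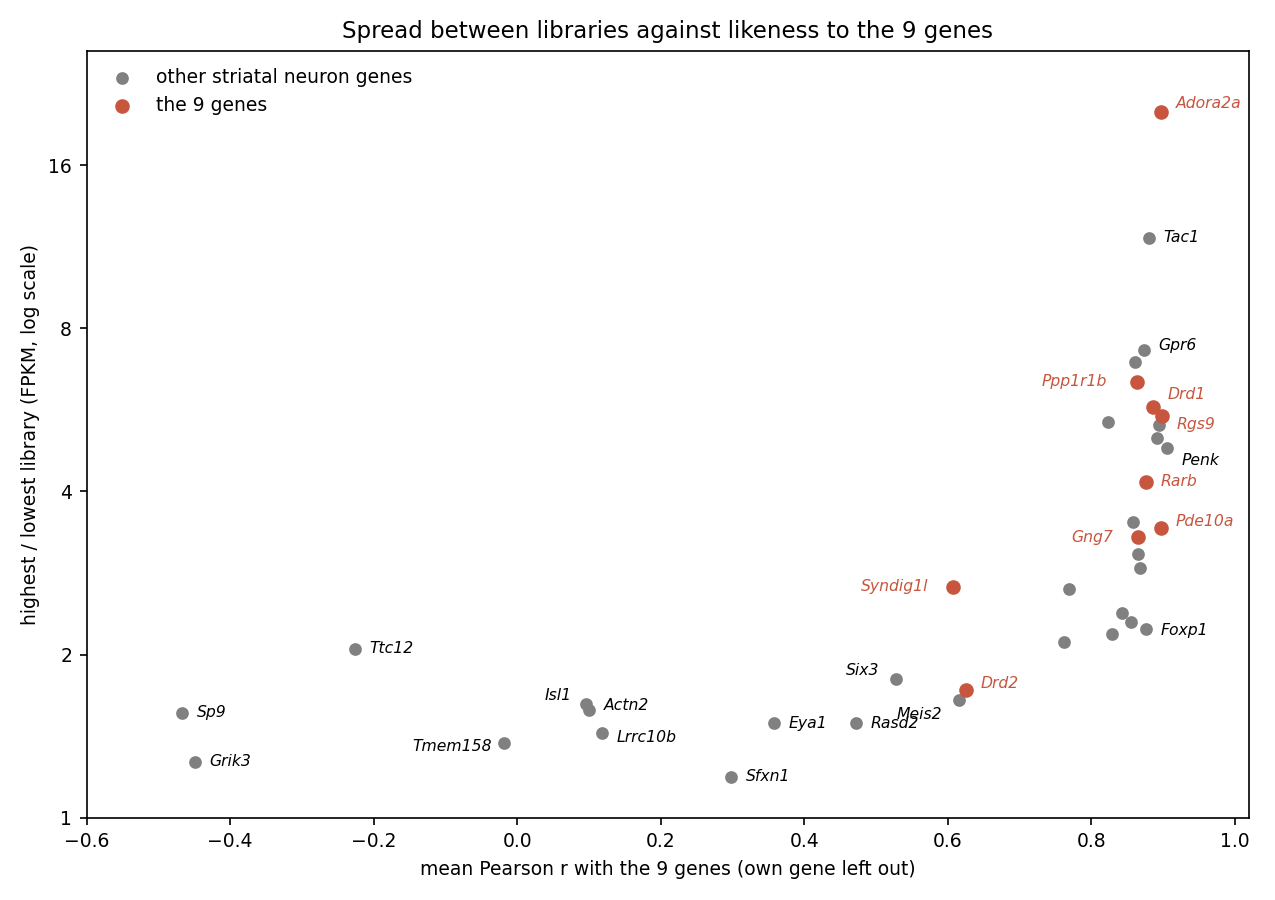
Highest over lowest library in FPKM (log axis) against the mean Pearson r with the 9 genes over the 12 libraries; red points are the 9 genes, each without itself in the mean, and grey points the 28 other striatal neuron genes, of which 16 are labelled. Adora2a has the widest distance, 20.0-fold, and Drd2 lies among genes with a distance under 2-fold.

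The cascade from dopamine receptors to cyclic AMP and DARPP-32 was read from 27 further genes, of which 24 were tested. None was called, 14 were above and 10 below 0, and the median log2 fold change was 0.00666. Gnas, which encodes a stimulatory G protein alpha subunit, had groups that did not overlap, 14.2 to 15.5 FPKM in saline and 11.4 to 13.6 in CFA (log2 fold change -0.23, SE 0.05, limma adjusted p = 0.165). Pde1b averaged 29.2 ± 4.18 FPKM in saline against 36.4 ± 9.33 in CFA (SD over 6 each; 0.28, adjusted p = 0.682), and the cyclic AMP phosphodiesterase gene Pde4b 11.1 ± 1.00 and 12.4 ± 1.34 (0.14, adjusted p = 0.682). Prkaca, a catalytic subunit of protein kinase A, had 110 ± 4.43 and 104 ± 6.49 (-0.0885, adjusted p = 0.696). A mean r of 0.8 or more with the 9 genes was reached by 3 of the 24, while Prkaca had -0.70 and Gnas -0.59. Adcy5, the main adenylyl cyclase gene of the striatum, had 0.78, and Gnal, the olfactory-type stimulatory alpha subunit used there, 0.64. The phosphatase gene Ptpn5 of the same list had -0.17. Without CFA 1 these means were 0.60 for Adcy5, 0.32 for Gnal and -0.51 for Ptpn5. Adcy5, Gnal and Ptpn5 were named after their values were seen.

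Genes of retinoid signalling, the pathway of Rarb, were 15 in number and 11 of them were tested. None was called, 5 were above and 6 below 0, with a median of -0.0299. Rxrg was the 1 of 11 that followed the 9 genes at a mean r of 0.8 or more. Rxrb (-0.41) and Rara (-0.29), other nuclear receptors of the pathway, had negative means.

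Ppp1r1b was then set against the mean of 19 gene lists of cell types, pathways and RNA quality, over the 12 libraries. After adjustment over the 19 lists, 3 passed by Pearson's r, and only the retinoid list by rho. All lists were chosen with earlier results of these data known, so these p-values give no independent support. The other striatal genes had r = 0.921 (permutation p = 6e-05, adjusted p = 0.00114) and rho = 0.755 (permutation p = 0.00619, adjusted p = 0.0588), and r = 0.786 without CFA 1 and CFA 6. Within CFA r was 0.961 and rho 1.0 (exact permutation p of r 0.00139). Within saline r was 0.749 but rho 0.371 (exact permutation p of r 0.0875), and saline 1 was the highest saline library for both, with a list mean of 3.53 against 3.24 for the next. The retinoid list had r = 0.882 (permutation p = 0.000220, adjusted p = 0.00209) and rho = 0.923 (permutation p = 7e-05, adjusted p = 0.00133). It shares Rxrg with the striatal list, and without Rxrg, an alternative chosen after seeing the data, r was 0.693 (permutation p = 0.0126, adjusted p = 0.0684). Its rho was then 0.790 (permutation p = 0.00325, adjusted p = 0.0588), and r was 0.731 when CFA 1 and CFA 6 were also left out. The dopamine to cyclic AMP list had r = 0.777 (permutation p = 0.00320, adjusted p = 0.0203) and rho = 0.643 (permutation p = 0.0276, adjusted p = 0.0931). Without CFA 1 and CFA 6 its r was 0.493, so that relation rested on those libraries.

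**Figure D5:**
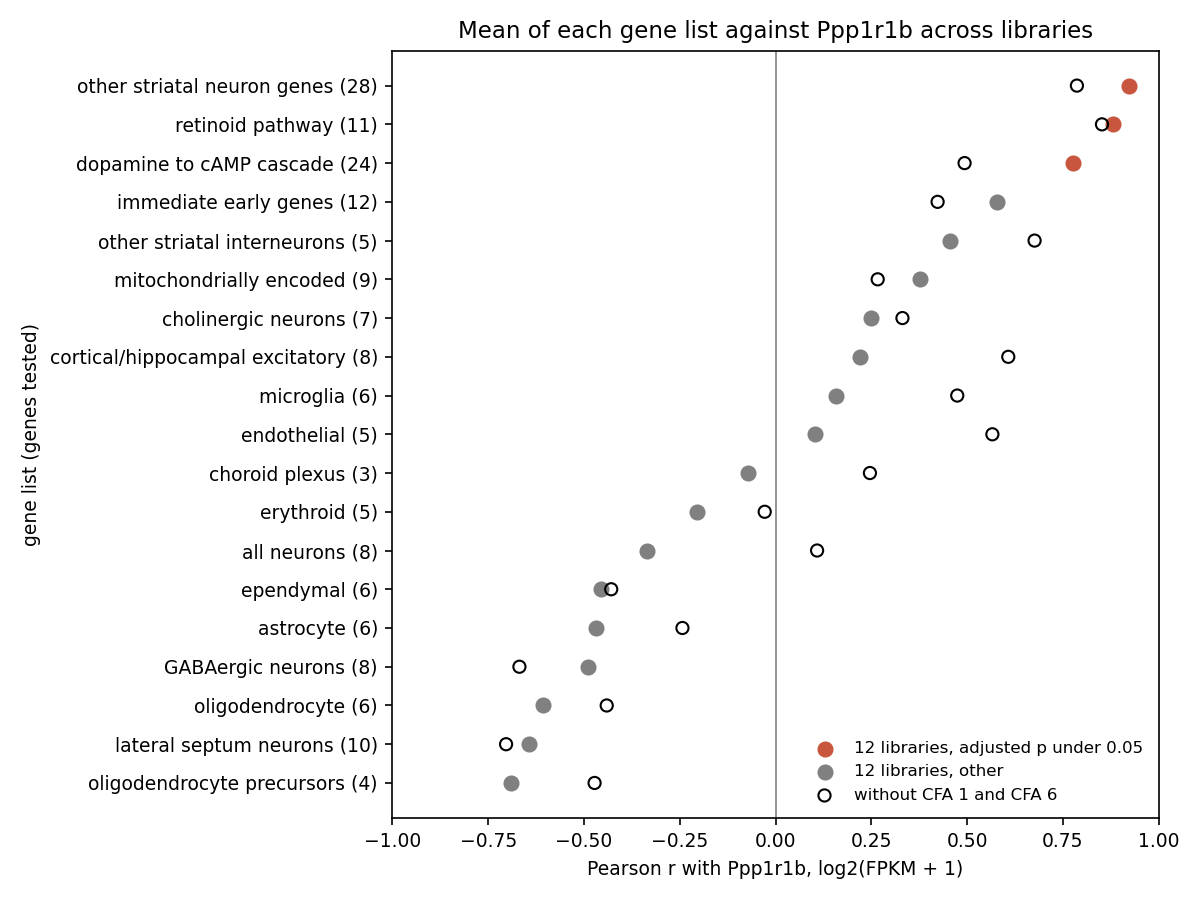
Pearson r of Ppp1r1b with the mean of each of 19 gene lists on the log2(FPKM + 1) scale, with the number of tested genes in brackets; filled points use the 12 libraries and open points leave out CFA 1 and CFA 6. The striatal list lies at 0.921 and the oligodendrocyte precursor list at -0.690, the ends of the range.

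Lateral septum markers ran the other way from Ppp1r1b, short of the threshold. The 10 tested had r = -0.643 (permutation p = 0.0245, adjusted p = 0.0931) and rho = -0.650 (permutation p = 0.0253, adjusted p = 0.0931), and r = -0.703 without CFA 1 and CFA 6. With 1 library left out, r ran from -0.802 (without CFA 1, adjusted p = 0.0244 by permutation) to -0.539. Within saline r was -0.561 but rho -0.0286 (exact permutation p of r 0.231). Within CFA r was -0.624 and rho -0.657 (exact permutation p of r 0.190). The summed level of the markers was 212 to 295 FPKM in saline and 192 to 309 in CFA. In the comparison of CFA with saline, 9 of the 10 tested were below 0, with a median of -0.14 and none called. Zic4, a zinc finger transcription factor gene, had 7.61 ± 0.992 FPKM in saline and 6.71 ± 1.00 in the CFA group (SD, n = 6 each; a difference of -0.16 in log2, limma adjusted p = 0.755), and the corticotropin-releasing hormone receptor gene Crhr2 3.40 ± 0.533 and 2.91 ± 0.502 (-0.17, adjusted p = 0.739). Of the 10, 8 had a negative mean r with the 9 genes, from -0.32 for Glp1r to -0.72 for Zic2, while the neurotensin gene Nts had 0.45 and Ndst4 0.24.

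Both lists of the oligodendrocyte lineage also had negative values that did not pass. Oligodendrocyte precursor genes had r = -0.690 (permutation p = 0.0144, adjusted p = 0.0684) and rho = -0.713 (permutation p = 0.0119, adjusted p = 0.0754), with a summed level of 95.02 to 135 FPKM in saline and 88.9 to 133 in CFA over 4 genes, none at 0. Oligodendrocyte genes had r = -0.607 (permutation p = 0.0358, adjusted p = 0.113) and rho = -0.531 (permutation p = 0.0794, adjusted p = 0.189), with 764 to 1983 FPKM in saline and 1011 to 2397 in CFA over 6 genes, none at 0. Immediate early genes, induced when neurons fire, had r = 0.579 (permutation p = 0.0485, adjusted p = 0.132) and rho = 0.636 (permutation p = 0.0294, adjusted p = 0.0931). The remaining 12 lists, from microglia to mitochondrially encoded transcripts, had r between -0.491 and 0.454.

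With the mean of the other striatal genes as a covariate, the estimates of 5 of the 9 genes lay below 0 and 4 above, and their median was -0.0185 in place of 0.45. That mean had r = 0.921 with Ppp1r1b, and its genes were listed with earlier results of these data known. Such a covariate takes up much of any shift that the 9 genes share with the list, whatever its origin. The labels do not say how much of the neighbouring striatum each dissection held, and its part in the values of the 9 genes was not tested. Over the libraries with Xist above 1 FPKM, 2 saline and 5 CFA, an alternative added once the data had been seen, the median of the 9 estimates was 0.58 and none was called.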

How the data were processed

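Bulk RNA of the lateral septum was sequenced in 12 libraries, 6 saline and 6 CFA. Per the labels' protocols, RNA was isolated with Trizol and sequenced as paired reads on a NovaSeq. HISAT2 2.0.5 and build mm10 are named in the submitters' processing notes; for the counter, its strand setting and the annotation, the sources used here give nothing. In the authors' deposited table, values are FPKM per gene and library, with the gene length used. FPKM values step in whole reads, which gave each library's depth, with 100% of values within 0.01 read of a whole number. Another table has 6 sample columns whose names match none of the 12 samples, and these were left out.

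Genes with at least 1 FPKM in at least 6 libraries were tested with limma 3.58.1 (R 4.3.3) on log2(FPKM + 1) values (moderated by eBayes with trend; two-sided), Benjamini-Hochberg adjustment over 13345 genes and a threshold of 0.05. This scale understates changes of low genes. The fit was tested on simulated data. Single values and ratios used exact permutation of all assignments of 6 of the 12 libraries, and correlations 100000 permutations (Python 3.11.15, numpy 2.4.6, pandas 2.3.3, scipy 1.17.1, figures with matplotlib 3.10.9). Promoter windows came from RefSeq (GRCm38.p6). Alternatives covered pseudocount, filter, scaling, variance model, recovered reads, replicate number, left-out libraries and covariates.

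The 9 genes and all lists were chosen with earlier results of these data known. Besides them, the text names from each list up to 4 genes with the smallest p, the 10 genes with the highest mean r, passing over predicted gene models, and Xist and Ddx3y. Any other gene, such as a tissue marker or a gene of low likeness on a list, was picked with its values in view. A few list genes are not reported here.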

Additional observations from a re-analysis of the deposited data

Results flagged for a closer look

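In 7 of 76 screened groups of 6 libraries, 1 library lay far from the others, with a gap to its nearest neighbour of more than 0.625 of the group's range. For normally distributed values, chance alone gives about 1 in 20 such groups. Genes and ratios were screened without log2, where a high value stands out more. In all 7 it was saline 1 at the high end of the saline group. Drd1 stood at 9.96 FPKM there, with the next saline library at 5.58, Adora2a at 6.92 against 3.12, and Rgs9 at 6.50 against 4.13. Pde10a stood at 12.8 FPKM against 8.95 and Gng7 at 76.9 against 43.7. The ratio of Drd1 to Drd2 was 0.475 in saline 1 against 0.253 in the next saline library, and that of Adora2a to Drd2 0.330 against 0.141. These 7 share their library and genes that vary together, so they are not 7 separate observations. On the log2(FPKM + 1) scale the gaps for Drd1, Rgs9 and Pde10a fell under 0.625 of the range. So did the gap for the log2 ratio of Drd1 to Drd2. CFA 1, which was higher than saline 1 for all 9 genes, stood out less from its own group, whose values were more spread.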

How the results depend on the processing

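No setting called any of the 9 genes. Over all genes, 4 were called, against 2 without a filter, 2 without the mean-variance trend, 1 with the replicate block, 1 with Xist as a covariate, 1 over the libraries with Xist (chosen after seeing the data), and 1 (without saline 5 or CFA 6) to 11 (without saline 3) with a library left out, 10 without CFA 1. The labels do not say whether replicate numbers pair the libraries. Deviations from the group means had same-number correlations of -0.01 to 0.16. The best match in the other group had the same number for saline 2, saline 6, CFA 1, CFA 4 and CFA 5, and another number for the rest. These values cannot settle whether the libraries were paired. A block cannot move estimates in this balanced design (median 0.45). Under the replicate block the SE of Drd1 was 0.25 in place of 0.37, and Rgs9 had an interval of 0.0854 to 1.06 (limma adjusted p = 0.559). With the other striatal genes as a covariate, which takes up shifts that the 9 genes share with them, the median was -0.0185. The estimates of Drd2 (-0.0871), Adora2a (-0.11), Ppp1r1b (-0.0572), Pde10a (-0.0185) and Gng7 (-0.16) then turned negative. Drd2 was also negative with Xist as a covariate (-0.0526) and without saline 3 and saline 5 (-0.00876), and ran from -0.0554 (without CFA 1) to 0.0938 with a library left out. Left-out libraries moved the difference in log2 ratio between -0.0188 and 0.21 for Drd1 to Ppp1r1b and between -0.22 and 0.19 for Syndig1l to Ppp1r1b. They left 21 (without CFA 1) to 34 pairs and 2 to 5 lists (5 without CFA 5) past the threshold. Without CFA 1 or CFA 6 the dopamine to cyclic AMP list lost its call (r = 0.640 and 0.747). With a library left out, r with Ppp1r1b crossed 0 for all-neuron (-0.647 to 0.0845), endothelial (-0.0203 to 0.382), choroid plexus (-0.154 to 0.0445) and erythroid genes (-0.391 to 0.0802). The cause was not tested for any of these. EdgeR and DESeq2 on recovered reads were not run; voom on them gave a median of 0.50. At 102 reads in its lowest library, Rarb is the gene whose values depth limits most.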
